A study of Mus musculus with 20 samples.

Results

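The genes described here were Gm6180, a processed pseudogene of the cofilin gene Cfl1, together with the ADF/cofilin genes Cfl1, Cfl2 and Dstn and the kinases and phosphatases of cofilin, Limk1, Limk2, Ssh1, Ssh2, Ssh3 and Pdxp. They were chosen by gene symbol, and 9 of the 10 had a row among the 39179 genes counted in each mouse; Pdxp was not analysed here. Striatal RNA came from 20 adult male mice, about 6.5 months old, of generation 17 of a breeding experiment that started from a cross of 8 inbred strains. The High-Active line had been selected for distance travelled in the home cage, and the Control line had been bred without that selection. In each line, 5 mice received an intraperitoneal injection of saline and 5 received 0.25 mg/kg d-amphetamine sulfate, and tissue was taken 2 hours later. Each line was 1 selected or unselected population, so that selection and drift between the lines cannot be told apart. By the parents in the labels, the 10 High-Active mice came from 5 families and the 10 Control mice from 8, and 9 High-Active and 4 Control mice had a full sibling in the study.

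Cofilins bind actin filaments, sever them and speed the loss of actin subunits, and so let the actin skeleton of a dendritic spine be rebuilt. LIM kinases switch cofilin off by phosphorylating a serine near its start, and the slingshot phosphatases and the pyridoxal phosphatase (chronophin) encoded by Pdxp switch it on by removing that phosphate. RNA levels, as measured here, do not show how much of the cofilin protein was phosphorylated. A processed pseudogene is a copy of a spliced messenger RNA that was written back into the genome at another place.

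Gm6180 (ENSMUSG00000053038) occupied chr8:42246911-42247408 on the plus strand of GRCm38 as a single block of 498 bases. The block aligned without a gap to the 498 coding bases of Cfl1 that precede its stop codon, with an identity of 98.8%. The sequences differed at 6 positions, counted from the first base of the Cfl1 coding sequence with the Cfl1 base first, namely G105A, G186T, C241T, C333T, G437A and C471G. Of these, 3 changed the encoded residue, and no stop codon interrupted the reading frame of the copy. These stretches are shown because reads can be told apart only where they cover a difference. The first pair covers positions 101 to 250 and the second pair positions 329 to 478 of the coding sequence, taken from the GENCODE transcripts of GRCm38, with the differing bases in capitals. In Cfl1 the first stretch lies in exon 2 of 4, at chr19:5492594-5492743, and the second spans exons 3 and 4, at chr19:5493172-5493470 with the intron between them left out, all on the plus strand. In Gm6180 they lie at chr8:42247011-42247160 and chr8:42247239-42247388.
Cfl1, positions 101 to 250: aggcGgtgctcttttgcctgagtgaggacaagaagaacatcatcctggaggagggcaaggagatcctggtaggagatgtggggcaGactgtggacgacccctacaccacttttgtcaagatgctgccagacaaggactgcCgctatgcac
Gm6180, positions 101 to 250: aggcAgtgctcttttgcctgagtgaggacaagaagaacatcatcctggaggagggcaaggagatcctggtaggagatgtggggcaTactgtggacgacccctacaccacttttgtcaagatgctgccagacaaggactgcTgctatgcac
Cfl1, positions 329 to 478: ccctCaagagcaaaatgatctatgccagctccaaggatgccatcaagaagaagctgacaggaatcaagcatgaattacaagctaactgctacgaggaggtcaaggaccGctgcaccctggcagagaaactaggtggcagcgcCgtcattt
Gm6180, positions 329 to 478: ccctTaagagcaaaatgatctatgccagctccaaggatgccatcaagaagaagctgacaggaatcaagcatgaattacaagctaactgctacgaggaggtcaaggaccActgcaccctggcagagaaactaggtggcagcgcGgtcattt

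A single read of 100 bases, the length sequenced, would cover 1 difference in 290 of the 399 possible positions along the copy, 2 differences in 100 and none in 9. Reads were sequenced in pairs from fragments of about 200 bases, so a pair can cover more differences than 1 read. A search of the annotated transcripts for other copies of the Cfl1 coding sequence, at 80% identity or more over at least 300 bases, found 7 further processed pseudogenes. Of these, 5 had a row in the count files. No read was counted on Gm8682, Gm14933, Gm12310 or Gm15660 in any mouse, and Gm14108 had 1 read in all Control mice and 1 in all High-Active mice. Over the same mice, Gm6180 had 97 reads in the Control line and 5308 in the High-Active line. The high count was thus found at 1 of the 6 pseudogene copies with a row.

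In saline-treated Control mice 411, 448, 469, 477 and 883, respectively, 15, 4, 15, 10 and 11 reads were counted on Gm6180. In amphetamine-treated Control mice 369, 407, 409, 454 and 457 the counts were 6, 6, 8, 13 and 9. In saline-treated High-Active mice 197, 483, 499, 871 and 886 they were 463, 631, 522, 443 and 622. In these saline-treated mice the lines did not overlap, and every High-Active count was far above every Control count. Here and for the genes below, the share of all genes that separate the lines in this way is not reported. In amphetamine-treated High-Active mice 415, 487, 872 and 905 the counts were 390, 690, 801 and 733, whereas mouse 192 had 13 reads, a count within the Control range. As a mean, Gm6180 stood at 0.24 ± 0.0853 CPM (reads of a gene scaled to the size of the library; SD, n = 10) in the Control line and 12.2 ± 4.54 CPM (SD, n = 10) in the High-Active line.

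The genotype effect, High-Active minus Control averaged over both treatments, was tested with edgeR's quasi-likelihood test on all 14792 genes with more than 1 CPM in at least 3 mice, with Benjamini-Hochberg adjusted p (FDR) under 0.1 as the threshold. Gm6180 was upregulated with a log2 fold change of 5.65 (SE 0.473, adjusted p = 2.07e-06), a 50.1-fold difference. It was 5.65 in saline-treated mice (SE 0.661, adjusted p = 0.000305) and 5.64 in amphetamine-treated mice (SE 0.677, adjusted p = 0.000466). Without mouse 192 the log2 fold change over both treatments was 5.80 (adjusted p = 2.79e-14). With families as a block in limma-voom, Gm6180 missed the threshold among amphetamine-treated mice and passed it over both treatments (log2 fold change 5.21, adjusted p = 0.0315). Among saline-treated mice, limma-voom called 3 of the 9 genes, 1 of them upregulated. There edgeR called 4, of which 2 were upregulated (Gm6180 and Ssh1). At least 1 of these 2 genes thus missed the limma-voom threshold among saline-treated mice as well. Which of them it was is not reported here.

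**Figure D1:**
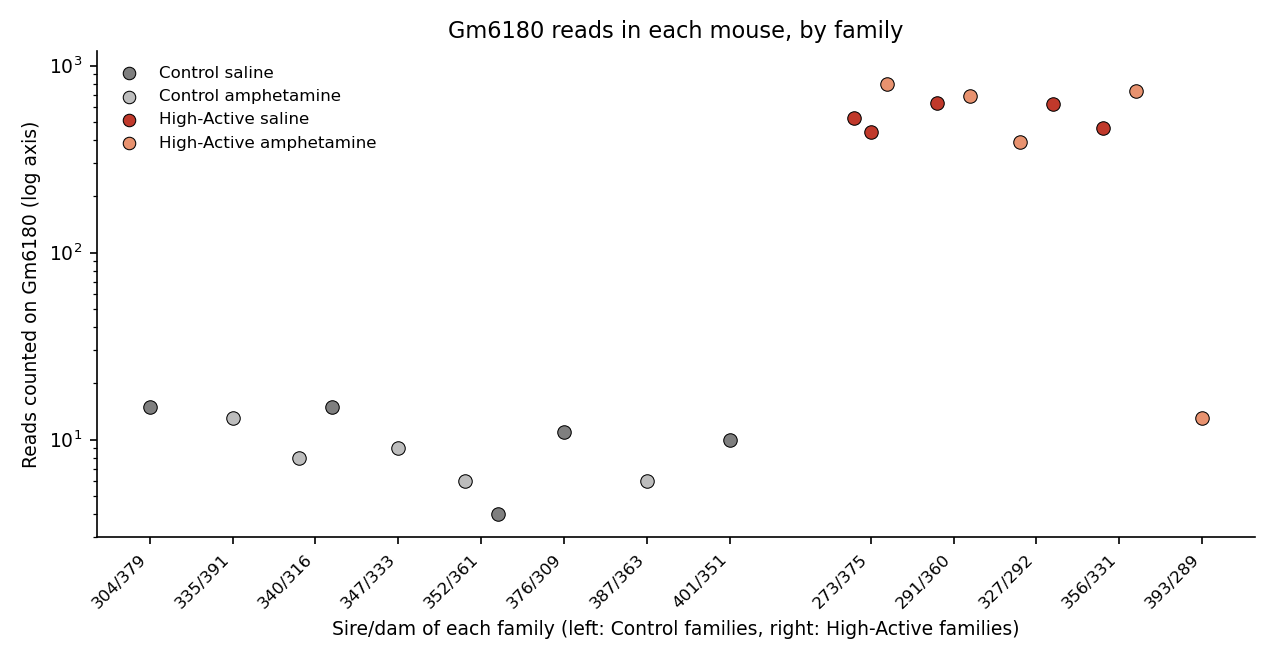
Reads counted on Gm6180 in each mouse (log axis) against its family, named by sire and dam, with 8 Control families on the left and 5 High-Active families on the right. Each point is 1 mouse, coloured by line and treatment. The 9 mice of 4 High-Active families lie between 390 and 801 reads, and the mouse of the fifth family lies at 13, among the Control mice at 4 to 15.

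Gm6180 was also set out by family. The 4 High-Active families with 2 or 3 mice had means between 3.71 and 3.81 log2 CPM, and mice of both treatments were high in each of them. Mouse 192 was the one mouse studied from its parents, at -1.68 log2 CPM, while Control family means ranged from -2.36 to -1.43, so that family, mouse and library cannot be told apart for its low level. It had travelled 1.36 km per day in the home cage, where the High-Active mice ranged from 0.583 to 3.18 and the Control mice from 0.200 to 0.474. Its library was among the deeper ones, with 50191946 reads counted on genes.

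The tested genes whose log2 CPM was most like that of Gm6180 over the 20 mice were Gm9843 (Pearson's r = 0.977), Acy3 (0.910), Unc93b1 (0.901), Rbl1 (0.889) and Eno1 (0.882). These values describe a pattern over mice that share line and family, and are given without a test. Gm9843 is a processed pseudogene, Acy3 an aminoacylase, Unc93b1 a chaperone of Toll-like receptors, Rbl1 a retinoblastoma-like protein and Eno1 the glycolytic enzyme enolase 1. None lies on the chromosome of Gm6180. Acy3 and Unc93b1 lie close together on chromosome 19, with starts at 3986570 and 3935186. Ssh3 and Cfl1 lie near them, with starts at 4261668 and 5490455. The other genes lie on chromosomes 16, 2 and 4. Since these genes were picked for likeness over the same mice, mouse 192 included, a Control-like level in that mouse is in part built into the choice. In all 5 genes mouse 192 was within the range of the Control mice and below the other 9 High-Active mice. Gm9843, for example, was at 3.23 log2 CPM in mouse 192, from 3.07 to 3.45 in Control mice and from 4.45 to 4.80 in the other 9 High-Active mice.

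On chromosome 8, 38 annotated genes with a row had their start within 2 Mb of Gm6180. Reads were counted on 26 of them, and 11 were expressed enough to be tested, all of them on the side of lower coordinates. Of the 11, 3 passed the threshold for the genotype effect, where 14.5% of all genes tested did. Mtus1, a microtubule-associated protein, was higher in the High-Active line (log2 fold change 0.30, SE 0.0904, adjusted p = 0.0496). Micu3, a regulator of mitochondrial calcium uptake (-0.14, SE 0.0344, adjusted p = 0.0194), and Frg1 (-0.10, SE 0.0355, adjusted p = 0.0886) were lower. Frg1 was the nearest tested gene before Gm6180, at 849.5 kb between the starts, and Fat1 the nearest after it, at 2689 kb (log2 fold change -0.04, SE 0.102, adjusted p = 0.832). The 11 tested neighbours differed between the lines by at most 0.30 on the log2 scale, against 5.65 for Gm6180. Neighbours too low to be tested could differ more, such as Fgl1, named after its values were seen, with 42 reads over the Control and 1 read over the High-Active mice.

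Cfl1 (ENSMUSG00000056201, chr19:5490455-5495201, plus strand) encodes cofilin 1, the non-muscle cofilin that predominates in brain. Values from here on follow the order of mice given for Gm6180, with mouse 192 first in its group. In saline-treated Control mice Cfl1 was at 9.35, 9.32, 9.26, 9.25 and 9.40 log2 CPM. In amphetamine-treated Control mice it was at 9.30, 9.37, 9.29, 9.34 and 9.39. In saline-treated High-Active mice it was at 9.16, 9.15, 9.08, 9.07 and 9.20, all below every Control mouse. In amphetamine-treated High-Active mice it was at 9.35, 9.06, 9.17, 9.36 and 9.16. Thus 8 of the 10 High-Active mice lay below all Control mice, and mice 192 and 872 lay within the Control range. Mouse 192 was low in Gm6180, and mouse 872 had the highest Gm6180 level of all.

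Cfl1 was downregulated in the High-Active line, with a log2 fold change of -0.15 (SE 0.0379, adjusted p = 0.0234, edgeR), which is a difference of -9.82%. The difference was -0.19 in saline-treated mice (SE 0.0536, adjusted p = 0.0845) and -0.11 in amphetamine-treated mice (SE 0.0536, adjusted p = 0.394), and the interaction did not pass the threshold (0.07, SE 0.0758, adjusted p = 1). RNA came from whole tissue, so fewer cells with a transcript and less of it per cell cannot be told apart. The summed level of 10 markers of cortical excitatory neurons, a cell type of the tissue next to the striatum, ranged from 876.4 to 1720 CPM in Control mice and from 579 to 1900 CPM in High-Active mice. With the mean log2 CPM of these markers, the cortical marker score, as a covariate, the Cfl1 difference was -0.08 (SE 0.0306, adjusted p = 0.258).

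Because a read of the copy can be assigned to its parent and the reverse, both genes were also compared as a sum. Gm6180 made up 0.0374% ± 0.0133 of the summed reads of Gm6180 and Cfl1 in the Control line and 2.09% ± 0.748 in the High-Active line (SD, n = 10 each). In mouse 192 it made up 0.0404%. These are shares of reads that are not scaled by length, and Gm6180 has 498 exon bases against 2844 in Cfl1. The summed level was 9.33 ± 0.0528 log2 CPM in the Control line (SD, n = 10) and 9.21 ± 0.101 in the High-Active line (SD, n = 10), a difference of -0.12 (two-sided permutation test, p = 0.00412). The sum was therefore also lower in High-Active mice, in a comparison made without the cortical marker score. When each family entered as 1 mean, the difference was -0.11 (exact permutation test, p = 0.0187, 5 against 8 families). It was -0.15 among saline-treated mice (exact permutation test, p = 0.00794, the smallest this test allows with 5 against 5) and -0.09 among amphetamine-treated mice (exact permutation test, p = 0.175). These p-values are not adjusted over all genes. In the edgeR fit the summed gene was at -0.12 over both treatments (adjusted p = 0.0546). Among saline-treated mice that fit called 1 gene lower, where Cfl1 and Ssh3 had both passed, so at least 1 of the sum and Ssh3 missed. Among amphetamine-treated mice the sum missed the threshold.

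Reads that aligned to more than 1 place were not counted on any gene. They made up 6.18% ± 0.275 of all alignments in the Control line and 6.46% ± 0.242 in the High-Active line (SD, n = 10 each), which differ by 0.275 percentage points (two-sided permutation test, p = 0.0268). How many of them came from either cofilin copy was not tested. Of the exon bases of Cfl1, 16.5% overlap Snx32 on the other strand, and whether the counting used the strand is not given in the sources used here. Snx32 itself had a mean of 74.2 CPM in the Control line and 73.0 CPM in the High-Active line.

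The 3 genes whose log2 CPM was most like that of Cfl1 over the 20 mice were Mal2 (Pearson's r = 0.934), Camkk1 (0.928) and Fam131a (0.920). Camkk1 encodes a calcium-dependent kinase kinase. None of the 3 was among the 5 genes most like Gm6180.

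Cfl2 (ENSMUSG00000062929, chr12:54858809-54862877, minus strand) encodes cofilin 2, the muscle cofilin, which is also made in brain. It was at 6.18, 6.11, 6.25, 6.38 and 6.12 log2 CPM in saline-treated Control mice, and at 6.03, 6.02, 6.21, 6.20 and 6.12 in amphetamine-treated Control mice. It was at 6.52, 6.22, 6.37, 6.50 and 6.21 in saline-treated High-Active mice. It was at 6.33, 6.43, 6.30, 6.27 and 6.07 in amphetamine-treated High-Active mice. The lines overlapped, with 3 of the 10 High-Active mice above all Control mice. Cfl2 was upregulated in High-Active mice by 0.16 (SE 0.0521, adjusted p = 0.06), opposite in direction to Cfl1. The call was lost in 6 of the 20 fits that left out 1 mouse, with adjusted p up to 0.116, without High-Active mice 197, 415 or 871 or Control mice 407, 448 or 883. With the cortical marker score as a covariate the difference was 0.11 (SE 0.0577, adjusted p = 0.413).

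Dstn (ENSMUSG00000015932, chr2:143915320-143943324, plus strand) encodes destrin, also called actin-depolymerizing factor (ADF). Its levels ranged from 7.21 to 7.38 log2 CPM in Control mice and from 7.16 to 7.44 in High-Active mice. The lines overlapped on both sides, and the genotype effect was -0.003 (SE 0.0367, adjusted p = 0.975). The 3 genes of the family thus had differences of different sign, with only Cfl1 lower past the threshold.

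**Figure D2:**
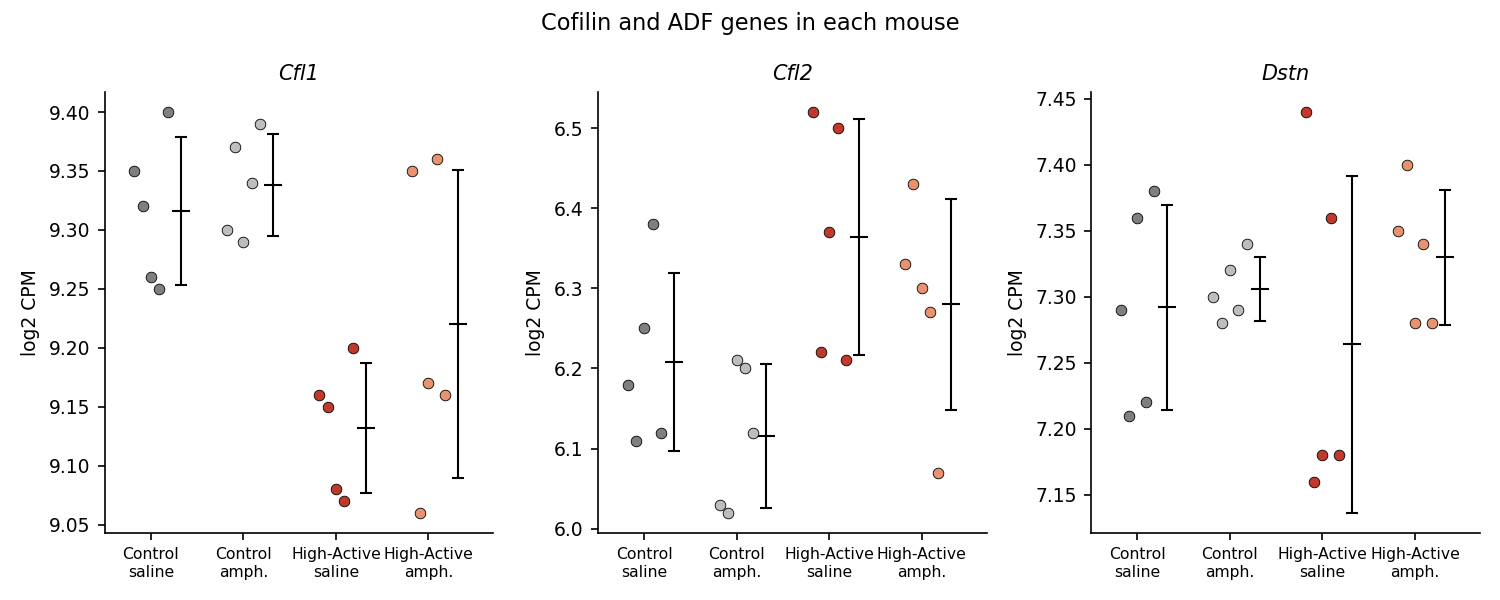
Level of Cfl1, Cfl2 and Dstn (log2 CPM) in each mouse of the 4 groups, 1 point per mouse, with the mean and SD (n = 5) beside the points. The axes differ between panels and do not start at 0. All 5 saline-treated High-Active mice lie below the Control mice for Cfl1, whereas Dstn overlaps between the lines.

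Apart from the Gm6180 share of summed reads, levels of different genes were compared per length, as CPM per kilobase of exon (RPKM). Of the summed RPKM of the ADF/cofilin genes, Cfl1 held 68.4% ± 1.04 in the Control line (SD, n = 10) and 65.6% ± 2.29 in the High-Active line (SD, n = 10). Dstn held 24.9% ± 0.741 and 26.5% ± 1.61 (SD, n = 10 in each line), and Cfl2 held 6.64% ± 0.621 and 7.92% ± 0.839 (SD, n = 10 in each line). The Cfl1 share was 2.83 percentage points lower in High-Active mice, a difference of -2.83 (two-sided permutation test, p = 0.0012). With family means it was -2.49 (exact permutation test, p = 0.00777, 5 against 8 families). Within treatments the difference was -3.06 in saline-treated mice (exact permutation test, p = 0.0397) and -2.60 in amphetamine-treated mice (exact permutation test, p = 0.0238). Scaled by coding length in place of exon length, the Cfl1 share was 73.6% in the Control line and 70.8% in the High-Active line. Cfl1 thus remained the leading transcript of the family in both lines, with a smaller share in High-Active mice. The share was not compared with the cortical marker score as a covariate.

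In the Control line the order of the genes per length was Cfl1 (226 ± 8.26 RPKM, SD), Dstn (82.5 ± 3.15), Cfl2 (21.9 ± 1.67), Limk2 (17.8 ± 1.31), Limk1 (7.94 ± 0.993), Ssh3 (7.10 ± 0.825), Ssh1 (2.75 ± 0.155), Ssh2 (2.56 ± 0.15) and Gm6180 (0.482 ± 0.171), with n = 10 mice each. Limk1 and Ssh3 overlapped there, as did Ssh1 and Ssh2. In the High-Active line the order of the other genes was the same, but Gm6180, at 24.6 ± 9.13 RPKM (SD, n = 10), stood beside Cfl2 at 24.6 ± 2.33 (SD, n = 10). That mean includes mouse 192, at 0.530 RPKM. In the other High-Active mice Gm6180 ranged from 23.67 to 33.55 RPKM, where Cfl2 ranged from 20.53 to 28.03 over the High-Active line. In those mice the pseudogene thus overlapped the second cofilin gene per exon length and lay well below Cfl1, at 204 ± 15.4 RPKM (SD, n = 10). The match with Cfl2 depends on the length used, as Gm6180 has 498 exon bases and Cfl2 has 3266, with 498 coding bases. Not scaled by length, Gm6180 was at 12.2 ± 4.54 CPM and Cfl2 at 80.2 ± 7.6 CPM in the High-Active line (SD, n = 10 each).

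**Figure D3:**
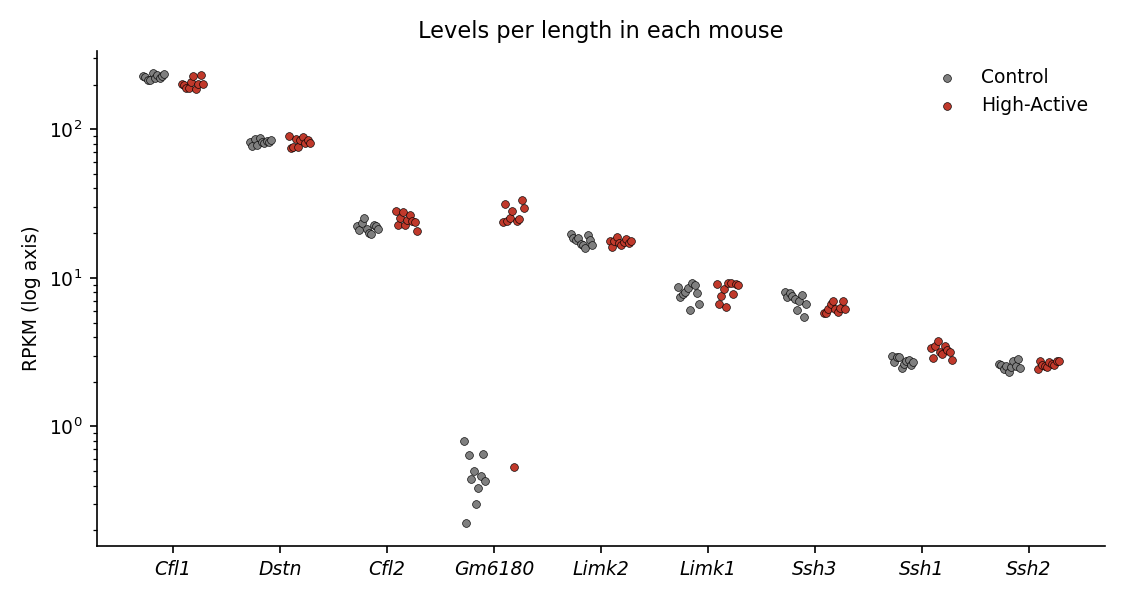
Level per length (RPKM, log axis) of the 9 genes in each of the 10 Control and 10 High-Active mice, 1 point per mouse. Gm6180 lies between 0.223 and 0.794 RPKM in Control mice, near the same level in High-Active mouse 192 at 0.530, and beside Cfl2 in the other High-Active mice.

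Among the 9 genes, 5 passed the threshold for the genotype effect (55.6%), where 14.5% of all genes tested did. The study had reported Gm6180 as higher and Cfl1 as lower in the High-Active line from these same mice. The share among the 9 is thus in part built into the list. Gm6180 passed the filter of 1 CPM only through High-Active mice, as Control mice reached at most 0.395 CPM. Upregulated in High-Active mice were Gm6180, Cfl2 and Ssh1, against a background of 7.63% of all genes, and downregulated were Cfl1 and Ssh3, against 6.9%. Apart from Gm6180 the differences were small, from -11.3% to 18.1%. With the cortical marker score as a covariate, Gm6180 and Ssh1 were the genes that passed, and 443 of all genes tested passed in place of 2149. In saline-treated mice 4 of the 9 passed (Gm6180, Cfl1, Ssh1 and Ssh3) against a background of 3.74%, and in amphetamine-treated mice Gm6180 alone passed, against 1.3%. That a gene passed under 1 treatment and missed under the other is not a difference between treatments, and no gene passed the threshold for the interaction.

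The LIM kinases did not differ between the lines past the threshold. Limk1 (ENSMUSG00000029674, chr5:134656039-134688598, minus strand), the LIM kinase abundant in neurons, ranged from 5.46 to 6.06 log2 CPM in Control mice and from 5.52 to 6.05 in High-Active mice (genotype effect 0.05, SE 0.0759, adjusted p = 0.726). Limk2 (ENSMUSG00000020451, chr11:3344256-3409189, minus strand), its widely expressed relative, ranged from 6.59 to 6.92 and from 6.61 to 6.84 (genotype effect -0.03, SE 0.039, adjusted p = 0.695). No High-Active mouse lay outside the Control range in either gene. Limk1 varied more between mice than any other of the genes except Gm6180, with an SE of 0.0759 for its difference.

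Slingshot phosphatases differed in direction. Ssh1 (ENSMUSG00000042121, chr5:113937094-113993894, minus strand), a phosphatase that is activated by binding actin filaments, was at 4.72, 4.59, 4.71, 4.70 and 4.47 log2 CPM in saline-treated Control mice. It was at 4.55, 4.61, 4.64, 4.54 and 4.59 in amphetamine-treated Control mice. It was at 4.92, 4.69, 4.95, 5.06 and 4.81 in saline-treated High-Active mice, and at 4.78, 4.95, 4.87, 4.81 and 4.65 in amphetamine-treated High-Active mice. Of the 10 High-Active mice, 8 lay above all Control mice, and mice 483 and 905 lay within the Control range. Ssh1 was upregulated by 0.24 (SE 0.0484, adjusted p = 0.00684), an increase of 18.1%. It was 0.25 in saline-treated mice (SE 0.0685, adjusted p = 0.0711) and 0.23 in amphetamine-treated mice (SE 0.0686, adjusted p = 0.158), with an interaction of -0.02 (SE 0.0969, adjusted p = 1). Mouse 192, low in Gm6180, was at 4.78 and thus above every Control mouse for Ssh1. The call held in all 20 fits that left out 1 mouse, and with the cortical marker score as a covariate the difference was 0.19 (SE 0.0548, adjusted p = 0.09).

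Ssh3 (ENSMUSG00000034616, chr19:4261668-4269180, minus strand), the slingshot member that does not bind actin filaments, was at 5.62, 5.49, 5.59, 5.53 and 5.46 log2 CPM in saline-treated Control mice. It was at 5.20, 5.42, 5.54, 5.06 and 5.35 in amphetamine-treated Control mice. In saline-treated High-Active mice it was at 5.14, 5.14, 5.23, 5.34 and 5.40, and in amphetamine-treated High-Active mice at 5.22, 5.17, 5.26, 5.41 and 5.22. Under saline the lines did not overlap, with all 5 High-Active mice below all Control mice. How many of all genes did so is not reported here, and 2573 of the 14792 genes tested had an unadjusted p under 0.05 under saline (edgeR). Under amphetamine they overlapped, and Control mice 369 and 454 were the lowest Control mice. Ssh3 was downregulated, with a log2 fold change of -0.17 over both treatments (SE 0.0544, adjusted p = 0.0567) and -0.28 in saline-treated mice (SE 0.077, adjusted p = 0.0682). The value was -0.06 in amphetamine-treated mice (SE 0.077, adjusted p = 0.758). The difference between these 2 values did not pass the threshold (interaction 0.22, SE 0.109, adjusted p = 1, edgeR). The call over both treatments was lost without High-Active mouse 415 (adjusted p = 0.103) and with the cortical marker score as a covariate (-0.14, SE 0.0631, adjusted p = 0.343).

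Ssh2 (ENSMUSG00000037926, chr11:77216287-77460220, plus strand), another slingshot phosphatase that acts on cofilin, ranged from 5.43 to 5.71 log2 CPM in Control mice and from 5.49 to 5.68 in High-Active mice. All High-Active mice lay within the Control range, and the genotype effect was 0.04 (SE 0.0339, adjusted p = 0.518).

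**Figure D4:**
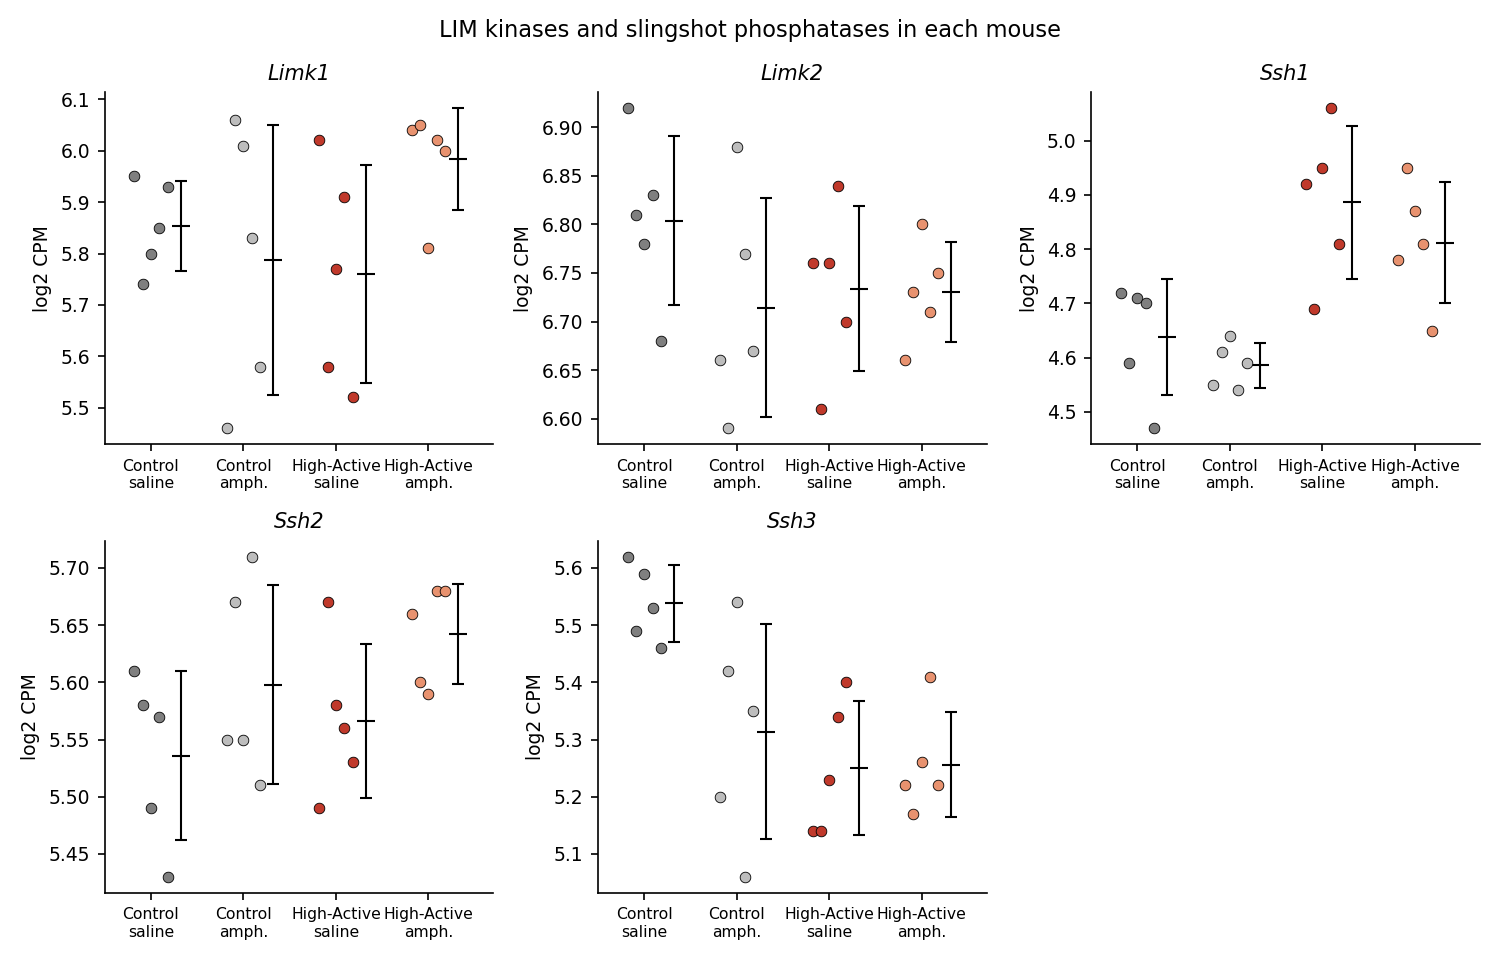
Level of the LIM kinases Limk1 and Limk2 and the slingshot phosphatases Ssh1, Ssh2 and Ssh3 (log2 CPM) in each mouse of the 4 groups, 1 point per mouse, with the mean and SD (n = 5) beside the points. The axes differ between panels and do not start at 0. Ssh1 is higher in most High-Active mice, and Ssh3 separates the lines under saline.

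Amphetamine changed none of the 9 genes past the threshold. For the amphetamine effect averaged over both lines, edgeR called 0 of the 9 genes and 0% of all genes tested, while 1844 genes, with Ssh2 among them, had an unadjusted p under 0.05. DESeq2 called 391 genes and the likelihood-ratio test with robust dispersions 458, and neither called any of the 9. The edgeR count over all genes rested on single mice, with 339 genes called without High-Active mouse 415, 128 without Control mouse 411, 33 without High-Active mouse 197, 20 without Control mouse 883 and 3 without Control mouse 457, again with 0 of the 9 in each. Ssh2 was at 0.07 after amphetamine (SE 0.0339, adjusted p = 0.398), and Ssh3 was at -0.11 (SE 0.0544, adjusted p = 0.445). In Control mice Ssh3 was at -0.22 after amphetamine (SE 0.077, adjusted p = 0.694) and in High-Active mice at 0.01 (SE 0.077, adjusted p = 0.993). Limk1 was at -0.05 in Control mice (SE 0.107, adjusted p = 0.946) and at 0.22 in High-Active mice (SE 0.107, adjusted p = 0.618), with an interaction of 0.27 (SE 0.152, adjusted p = 1). Gm6180 was at -0.23 after amphetamine (SE 0.473, adjusted p = 0.881) and at -0.07 without mouse 192 (SE 0.157, adjusted p = 0.922). In High-Active mice it was at -0.23 (SE 0.495, adjusted p = 0.953) and at 0.09 without mouse 192 (SE 0.171, adjusted p = 0.998), a change of sign.

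For the interaction edgeR called 0 of the 9 genes and 0% of all genes, with none of the 9 and 440 of all genes at an unadjusted p under 0.05. DESeq2 called 0 genes and the likelihood-ratio test 6, none of them among the 9. For amphetamine within the Control line edgeR called 0 of the 9 and 0% of all genes, with 1 of the 9 (Ssh3) and 940 of all genes at an unadjusted p under 0.05. Within the High-Active line it called 0 of the 9 and 0% of all genes, with none of the 9 and 1247 of all genes at an unadjusted p under 0.05. DESeq2 called 6 and 131 genes within the Control and High-Active lines and the likelihood-ratio test 45 and 280, with 0 of the 9 in each case. With 1 mouse left out, edgeR called up to 1 gene for the interaction, 3 within the Control line (without mouse 411) and 68 within the High-Active line (without mouse 415), none of them among the 9. The SEs of these differences were between 0.0339 and 0.152 for the 8 genes other than Gm6180, so smaller responses could have been missed.

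**Figure D5:**
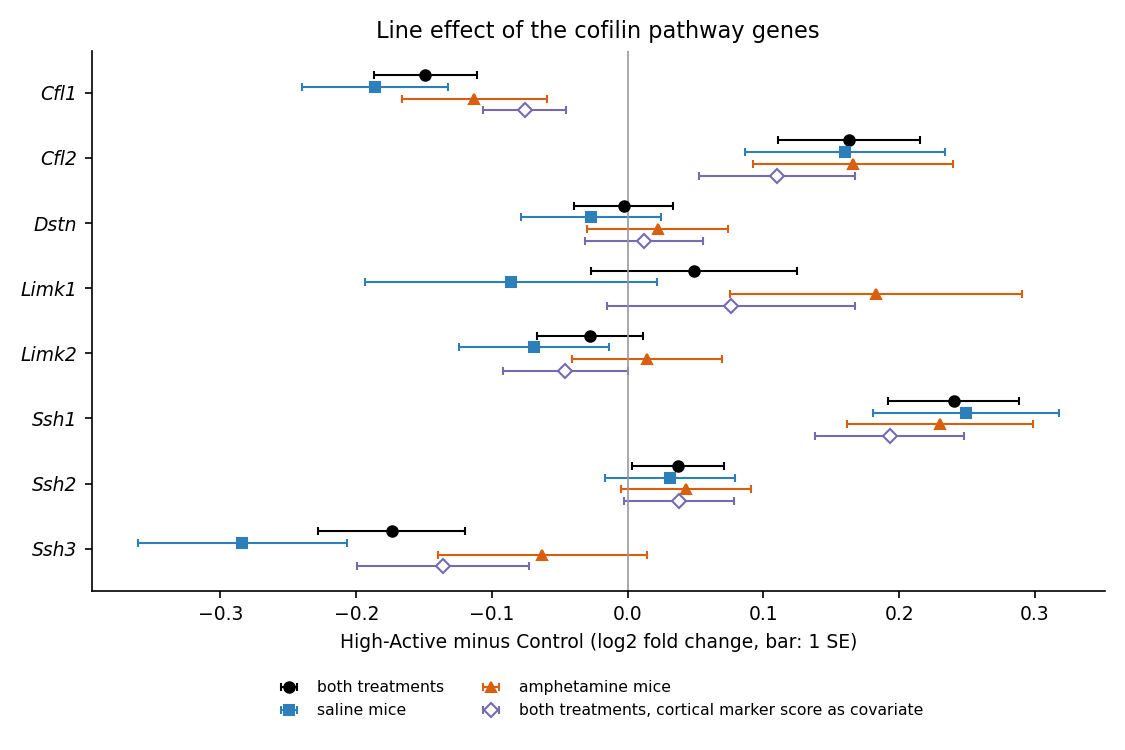
High-Active minus Control difference (log2 fold change) of Cfl1, Cfl2, Dstn, the LIM kinases and the slingshot phosphatases, over both treatments, in each treatment alone, and over both treatments with the cortical marker score as a covariate. Bars are 1 SE. Gm6180, at 5.65, is off this scale and left out; Ssh1 lies right of 0 and Cfl1 and Ssh3 left of 0 in every series.

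Of 40 other genes of the pathway that were tested, 2 passed the threshold for the genotype effect (5%, against 14.5% of all genes tested), both of them lower in High-Active mice. Their median difference was -0.04 on the log2 scale, and the median over all genes was -0.00093. Neither Tesk1 nor Tesk2, testicular protein kinases that also phosphorylate cofilin, passed in edgeR, both with an unadjusted p over 0.05 (-0.09 to 0.07). Among 6 regulators of slingshot, 3 had an unadjusted p under 0.05. Ppp3ca, a catalytic subunit of the calcium-dependent phosphatase calcineurin, which activates slingshot, was lower (-0.20, SE 0.0662, adjusted p = 0.0685). It stood at 181 ± 15.0 RPKM in the Control line and 157 ± 18.6 in the High-Active line (SD, n = 10 each). Ppp3cb (-0.10, adjusted p = 0.109, edgeR) and Ppp3r1 (-0.14, adjusted p = 0.116, edgeR) were also lower but missed the threshold. None of 8 partners of cofilin in filament disassembly passed, with 2 at an unadjusted p under 0.05 (median -0.03), nor any of 4 actins and profilins, with 0 at that p (median -0.03). Of the 10 genes of the Arp2/3 complex and cortactin, which build branched actin filaments, 4 had an unadjusted p under 0.05. Arpc4 was lower past the threshold (-0.16, SE 0.0437, adjusted p = 0.0333), at 25.2 ± 1.49 RPKM against 22.6 ± 1.66 (SD, n = 10 each). The number of the 40 genes that passed the genotype effect ranged from 1 to 6 when 1 mouse was left out, was 6 with DESeq2 and was 0 with the cortical marker score as a covariate.

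Markers of the cell types in and around the striatum were measured in the same libraries. All 10 markers of striatal projection neurons were detected in every mouse, with a summed level from 4407 to 5594 CPM in Control and from 3721 to 5905 CPM in High-Active mice, and none passed the threshold in edgeR, with 1 at an unadjusted p under 0.05. Their median summed levels were 5073 CPM in the Control and 4259 CPM in the High-Active line. Their log2 fold changes ranged from -0.286 to 0.073, with a median of -0.120. Of the 10 cortical excitatory neuron markers, 3 passed, all lower in High-Active mice (Slc17a7, Neurod2 and Tbr1), where 14.5% of all genes tested passed. Their log2 fold changes ranged from -0.907 to 0.033 (median -0.71), and 7 had an unadjusted p under 0.05. Median summed levels were 1485 CPM in the Control and 921.9 CPM in the High-Active line. Among the 10, Nrgn had the highest level per length, at a mean of 533.1 RPKM in the Control and 433.5 RPKM in the High-Active line. Slc17a7 came next, at 76.4 and 48.4 RPKM, so the markers do not weigh alike in the summed level. Of 7 oligodendrocyte markers 2 passed, both higher, with 4 at an unadjusted p under 0.05 (3876 to 6534 CPM and 5392 to 7180 CPM summed). All 7 had a log2 fold change above 0, from 0.119 to 0.332. Of 5 astrocyte markers 2 passed, both higher, with 3 at that p (913.1 to 1035 CPM and 924.5 to 1292 CPM). The astrocyte log2 fold changes ranged from -0.334 to 0.324. Of 4 microglia markers 1 passed, lower, with 1 at that p (181.3 to 231 CPM and 169.2 to 220.6 CPM). No marker of endothelium (3) or choroid plexus (4) passed, with 0 at an unadjusted p under 0.05. Only Kcnj13, a choroid plexus marker, had 0 reads in a mouse. The part of these markers in the differences of Cfl1, Cfl2, Ssh1 and Ssh3 was not tested beyond the fit with the cortical score.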

How the data were processed

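Striatal total RNA of 20 mice, 5 per group, was sequenced as stranded, paired reads. The authors aligned them to Ensembl GRCm38 (annotation release 75) with TopHat2 2.0.10 and deposited raw read counts per gene from htseq-count (HTSeq 0.6.1), per the methods; its strand setting and TopHat2's options are not given in the sources used here. Between 32388971 and 53710713 reads per mouse fell on genes. The deposited counts were tested with edgeR 4.0.16 (TMM, quasi-likelihood test, 4 group means, genes over 1 CPM in at least 3 mice, FDR under 0.1); SEs are |log2 fold change| over the square root of F. log2 CPM used a prior count of 2. The sum and the share were compared by permutation (100000 resamples, or exact below 10 per group). Positions, symbols and lengths came from GENCODE M21 on the same build, which matched 37607 of 39179 gene IDs; the ID of Pdxp there had no row. Copies of Cfl1 were sought with blastn 2.17.0. Members were all named; other pathway genes were named if past the threshold, at most 3 per list, with the 5 genes most like Gm6180 and Cfl1 and called neighbours within 2 Mb. Some genes under this rule, and 1 pathway list, are not reported here. Genes, lists and tests were chosen with earlier results of these data known. The fit was tested on simulated data. Mice share no replicate numbers; families served as the block in limma 3.58.1 (correlation within families 0.0264). The study's methods describe each mouse as coming from a different family, whereas the sires and dams in the labels repeat. p-values measure the spread between mice, some of them siblings. Other alternatives were RLE scaling, no filter, DESeq2 1.42.0, a likelihood-ratio test, a cortical marker score, summed cofilin reads and leaving out each mouse.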

Additional observations from a re-analysis of the deposited data

Results flagged for a closer look

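For each of the 9 genes, the highest and lowest mouse of each of the 4 groups were compared with the other 4 mice of their group, and 2 of the 36 groups held a mouse that stood apart by Dixon's criterion at the 95% level, which chance alone reaches in about 1 group in 20. Mouse 192 of the High-Active amphetamine group was low in Gm6180, at -1.68 log2 CPM against 3.60 to 4.07 in the other mice of its group, with a gap of 0.919 of the group's range. Mouse 487 of the same group was low in Limk1, at 5.81 log2 CPM against 6.00 to 6.05, with a gap of 0.774 of the range.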

How the results depend on the processing

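The genotype effect kept its direction for the 5 called genes under every alternative run. Gm6180 and Ssh1 also kept their call in each, Cfl1 lost it in 1, Ssh3 in 2 and Cfl2 in 7 of 27. For the genotype effect, the number of the 9 genes that passed was 5, and 2 with the cortical marker score as a covariate, and from 3 to 5 when 1 mouse was left out, 3 being without High-Active mouse 415. Of the other pathway genes 2 passed, 1 without a filter on low counts, 6 with DESeq2, 0 with the cortical score and from 1 to 6 with 1 mouse left out. Of all genes 2149 passed, 443 with the cortical score and from 1381 to 2535 with 1 mouse left out, the lowest without High-Active mouse 415. In saline-treated mice 4 of the 9 passed, 2 without a filter, 2 with Gm6180 and Cfl1 summed, 1 with the cortical score and from 1 to 4 with 1 mouse left out, 1 being without High-Active mice 499 or 871 or Control mouse 883. The number was 3 in limma-voom with families as a block and 3 with the likelihood-ratio test. In amphetamine-treated mice 1 passed, 0 with both genes summed, since Gm6180 was then no gene of its own, 2 with DESeq2 and 0 in limma-voom with families as a block. The summed level of Gm6180 and Cfl1 differed by -0.0903 among the mice given amphetamine (exact permutation test, p = 0.175) and by -0.143 to -0.109 with 1 mouse left out. The Cfl1 share of the family differed by -3.12 to -2.45 percentage points with 1 mouse left out. Amphetamine and interaction counts among the 9 genes were 0 in every alternative, although the amphetamine count over all genes rose from 0 to 339 without High-Active mouse 415. Except where stated, the cause of a change was not tested. No replicate numbers are shared between groups. Siblings given different treatments were not compared as pairs, and with families as a block in limma-voom 0 of the 9 genes passed for amphetamine. Depth limits Gm6180 in the Control line, where 4 to 15 reads carry its level.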
